A study of Arabidopsis thaliana with 6 samples.

Results

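The 7 genes described here code for D-type cyclins of Arabidopsis thaliana. They were taken by their locus names from 33602 loci with gene counts, and all 7 were among the 20151 loci with enough counts to be tested. They are CYCD1;1 (AT1G70210), CYCD2;1 (AT2G22490), the trio CYCD3;1 (AT4G34160), CYCD3;2 (AT5G67260) and CYCD3;3 (AT3G50070), CYCD4;1 (AT5G65420) and CYCD5;1 (AT4G37630). The study asked how light given in the night acts on transcript levels and splicing. Wild-type seedlings of the Columbia ecotype (Col) were grown for 9 days in cycles of 12 h light and 12 h dark. In the light pulse group, seedlings then received white light for 2 h from ZT18, that is, starting 18 h after lights-on. In the dark control group, seedlings of the same age and line stayed in darkness. Both were harvested at ZT20, as a pool of tissues, and sequenced as 3 RNA-seq libraries per group, named A, B and C here as in the deposited columns. Whether libraries A, B and C come from independent plantings is not stated, so the p-values below speak to the variation among these libraries, part or all of which may be technical.

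A D-type cyclin is the regulatory partner of the cyclin-dependent kinase CDKA;1. The complex phosphorylates the retinoblastoma-related protein RBR1, which otherwise holds E2F transcription factors inactive, and so promotes the passage from G1 into the S phase of DNA replication. In Arabidopsis, D-type cyclins are known as the step at which sucrose and hormones, cytokinin above all for the CYCD3 genes, meet the cell cycle in meristems and young organs. KRP and SIM/SMR proteins bind the complex and inhibit it.

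Gene counts summed to between 8695843 and 12261645 per light pulse library and to between 11124907 and 12689543 per dark control library. Counts are given below as CPM, that is, relative to the library total after scaling by TMM (the trimmed mean of M-values), and levels compared between genes are given as RPKM, the same value per 1000 bases of exon length. Light library A (4.40%) and dark library C (4.77%) held more ribosomal RNA than the other 4 libraries (0.799% to 1.75%). The change of each D-type cyclin gene is therefore also given without light A and dark C. Changes are the log2 fold change of light pulse over dark control with its standard error, from edgeR's quasi-likelihood test across all tested genes, and a gene is called when its p adjusted by the Benjamini-Hochberg method is below 0.05.

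The D-type cyclin genes did not move together. Of the 7, 1 was called higher in light pulse seedlings, 2 were called lower and 4 were not called. That makes 42.9% called, against 56.3% of all tested genes, of which 28.9% were called higher and 27.4% lower. The share among the cyclins is thus no larger than that of genes at large. The median change of the 7 was 0.13, against -0.0031 for all tested genes, and no member changed by as much as 2-fold. CYCD2;1 fell furthest, CYCD3;2 fell slightly and CYCD1;1 rose slightly. In seedlings taken whole, more or less RNA per cell and more or fewer cells of a type cannot be told apart.

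**Figure D1:**
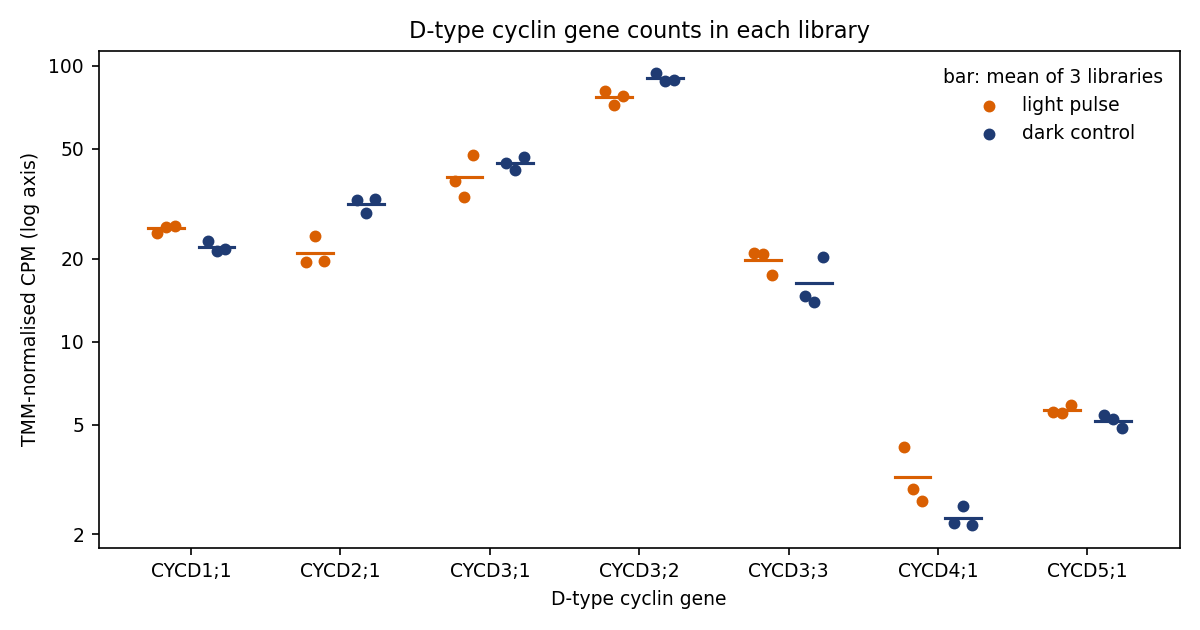
TMM-normalised CPM (log axis) of each D-type cyclin gene in the 3 light pulse libraries (orange, left) and the 3 dark control libraries (blue, right), with bars at the group means. CYCD2;1 lies between 19.4 and 24.1 CPM in light pulse libraries and between 29.2 and 33.0 CPM in dark control libraries, and CYCD3;2 is the highest gene in every library.

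CYCD2;1 encodes a cyclin known for its part in sucrose-dependent root and lateral root growth. The gene lies on chromosome 2 at 9553803 to 9556145 (TAIR10 coordinates, as for all positions here). It had 19.4, 24.1 and 19.5 CPM in light pulse libraries A, B and C, against 32.6, 29.2 and 33.0 CPM in dark control libraries A, B and C. Every light pulse library was below every dark control library, and light B was the highest of its group. The transcript fell by 0.58 ± 0.09 on the log2 scale, to 0.670 times the dark control level (95% interval 0.583 to 0.770, adjusted p = 8.56e-05). The call rests on 657 reads in light pulse and 1188 in dark control libraries. The change is moderate for this experiment: 14.2% of all tested genes had a lower log2 fold change. Without light A and dark C it was -0.50 ± 0.12 (adjusted p = 0.00208), and it was called under every alternative run.

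CYCD1;1 encodes a cyclin known for an early part in cell cycle activation during germination. It lies on chromosome 1 at 26439864 to 26442829. Its level was 24.8, 26.1 and 26.4 CPM in light pulse libraries A to C, against 23.1, 21.3 and 21.6 CPM in dark control libraries A to C. The groups did not overlap, although light A and dark A lay close together. The gene rose by 0.23 ± 0.08, or 1.17-fold (95% interval 1.04 to 1.31, adjusted p = 0.0228). This call did not hold without light B (0.21, adjusted p = 0.0692), light C (0.21, adjusted p = 0.0629), dark B (0.20, adjusted p = 0.0589) or dark C (0.20, adjusted p = 0.0662), nor without light A and dark C together (0.22, adjusted p = 0.0923). It was also lost in DESeq2 (0.22, adjusted p = 0.115) and with libraries scaled by their totals alone (0.08, adjusted p = 0.442).

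The CYCD3 genes are known to hold cells of young leaves in division and to delay the switch to endoreduplication, and they are the family members most closely tied to cytokinin. They gave 1 fall and 2 changes that were not called. CYCD3;2 (chromosome 5, 26836148 to 26837811) had 81.1, 72.0 and 77.5 CPM in light pulse libraries, against 93.9, 88.1 and 88.7 CPM in dark control libraries. The groups did not overlap, and the smallest gap lay between light A and dark B. The gene fell by 0.23 ± 0.06 on the log2 scale, to 0.851 times the dark control level (95% interval 0.776 to 0.933, adjusted p = 0.00500). Without light A and dark C the change was -0.30 ± 0.08 (adjusted p = 0.00527). Tested against a minimum change of 1.2-fold, it was not called (adjusted p = 0.629).

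CYCD3;1 (chromosome 4, 16357639 to 16359555), the member best known for its induction by cytokinin, had 38.4, 33.3 and 47.3 CPM in light pulse libraries, against 44.5, 41.8 and 46.9 CPM in dark control libraries. Light C, the shallowest library, was the highest of all 6, while light A and light B were below all dark control libraries. The change of -0.18 ± 0.10 was not called (95% interval -0.39 to 0.03, adjusted p = 0.143). It depended on single libraries in both directions, at -0.31 without light C (adjusted p = 0.00722) and -0.060 without light B (adjusted p = 0.621). Without light A and dark C it was -0.14 ± 0.13 (adjusted p = 0.399), and with libraries scaled by their totals alone -0.32 (adjusted p = 0.0105).

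CYCD3;3 (chromosome 3, 18565134 to 18566780) had 20.9, 20.8 and 17.4 CPM in light pulse libraries, against 14.6, 13.9 and 20.3 CPM in dark control libraries. Dark C, rich in ribosomal RNA, was at the light pulse level, and light C was below it. The change of 0.28 ± 0.13 was not called (95% interval 0.00 to 0.56, adjusted p = 0.0824). It was 0.46 without dark C (adjusted p = 0.00280), 0.36 without light C (adjusted p = 0.0485) and 0.41 ± 0.13 without light A and dark C (adjusted p = 0.0149). It was 0.18 without dark B (adjusted p = 0.266), 0.20 without dark A (adjusted p = 0.257), and 0.24 without light A or without light B (adjusted p = 0.208 and 0.209). Among the sister genes, the ratio of this transcript to that of CYCD3;2 in RPKM was 0.264, 0.295 and 0.229 in light pulse libraries, against 0.159, 0.161 and 0.233 in dark control libraries. These ratios overlapped through dark C and light C.

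CYCD4;1 and CYCD5;1 were the genes of lowest level. CYCD4;1 (chromosome 5, 26141470 to 26143993) is known for its sucrose-responsive use in the root pericycle and the start of lateral roots. It had 44, 35 and 22 reads in light pulse libraries, against 28, 30 and 28 reads in dark control libraries, or 4.15, 2.93 and 2.64 CPM against 2.20, 2.53 and 2.16 CPM. The light pulse libraries were all above the dark control libraries, with light A standing well above light B and light C. The change of 0.51 ± 0.23 was the widest in error of the 7 and was not called (95% interval 0.01 to 1.00, adjusted p = 0.0764). It was 0.29 without light A (adjusted p = 0.374), and 0.23 ± 0.29 without light A and dark C (adjusted p = 0.545).

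CYCD5;1 (chromosome 4, 17679279 to 17681202), known from natural variation in endoreduplication of leaves, had 5.56, 5.53 and 5.87 CPM in light pulse libraries, against 5.43, 5.23 and 4.86 CPM in dark control libraries. The groups did not overlap, although light B and dark A lay close together. The change of 0.13 ± 0.15 was not called (95% interval -0.20 to 0.45, adjusted p = 0.504), and its sign turned with libraries scaled by their totals alone (-0.02). Without light A and dark C the change was 0.07 ± 0.20 (adjusted p = 0.792). Counting both directions, the groups did not overlap for 5 of the 7 genes, 3 higher and 2 lower in light pulse libraries, where 62.4% of all tested genes did not overlap, 31.8% higher and 30.6% lower.

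**Figure D2:**
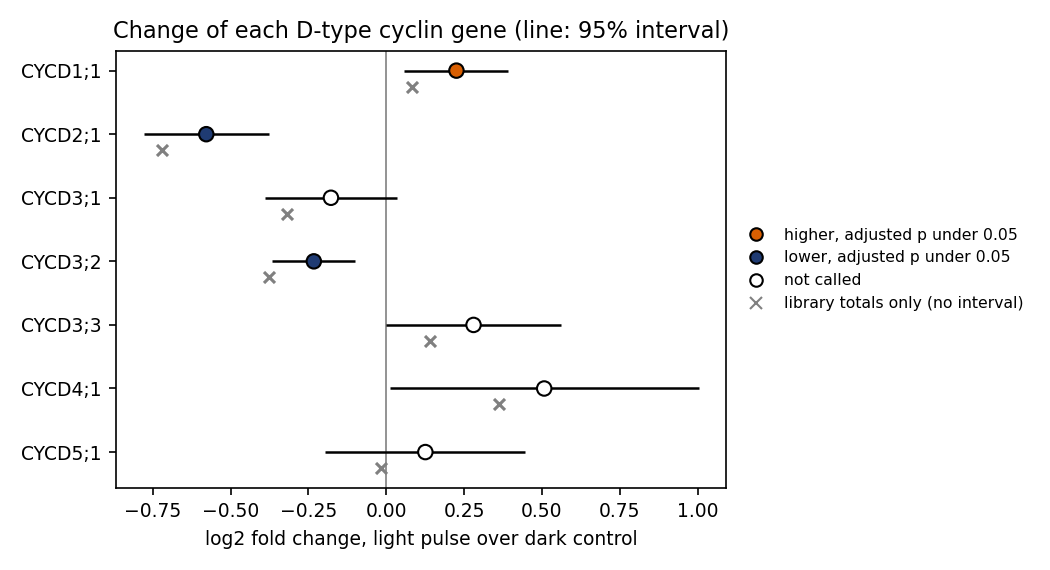
Log2 fold change of light pulse over dark control for each gene (circle) with its 95% interval (line), and the same change with libraries scaled by their totals alone (cross). CYCD2;1 at -0.58 stands farthest from 0 among the called genes, and every cross lies left of its circle.

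Each gene read along its exons gave the direction of the whole gene for the better covered members. The parts share reads with the gene count, so their direction is not independent of the gene's. The files number exon parts by position on the chromosome, and their counts sum to more than the gene's count, so a read that spans several parts appears to be counted in each. All 6 tested parts of CYCD2;1 had a lower mean CPM in light pulse libraries, with log2 ratios of -1.01 to -0.49, and 5 of them did not overlap between groups. Part 3, with 24, 40 and 22 reads in light pulse libraries against 86, 51 and 72 reads in dark control libraries, was the lowest. All 4 parts of CYCD3;2 were lower (-0.28 to -0.15, 3 without overlap). The 4 parts of CYCD3;1 were also lower on average (-0.23 to -0.12), but only part 2 did not overlap. The 6 parts of CYCD1;1 were all higher on average (0.08 to 0.39, 2 without overlap), as were the 4 of CYCD3;3 (0.16 to 0.40, 0 without overlap). The 2 tested parts of CYCD4;1 were higher on average (0.27 and 0.62) with overlap. CYCD5;1 was mixed, with 2 of its 4 tested parts lower and 2 higher. The share of all exon parts without overlap was not computed, so whether these counts are unusual cannot be said.

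**Figure D3:**
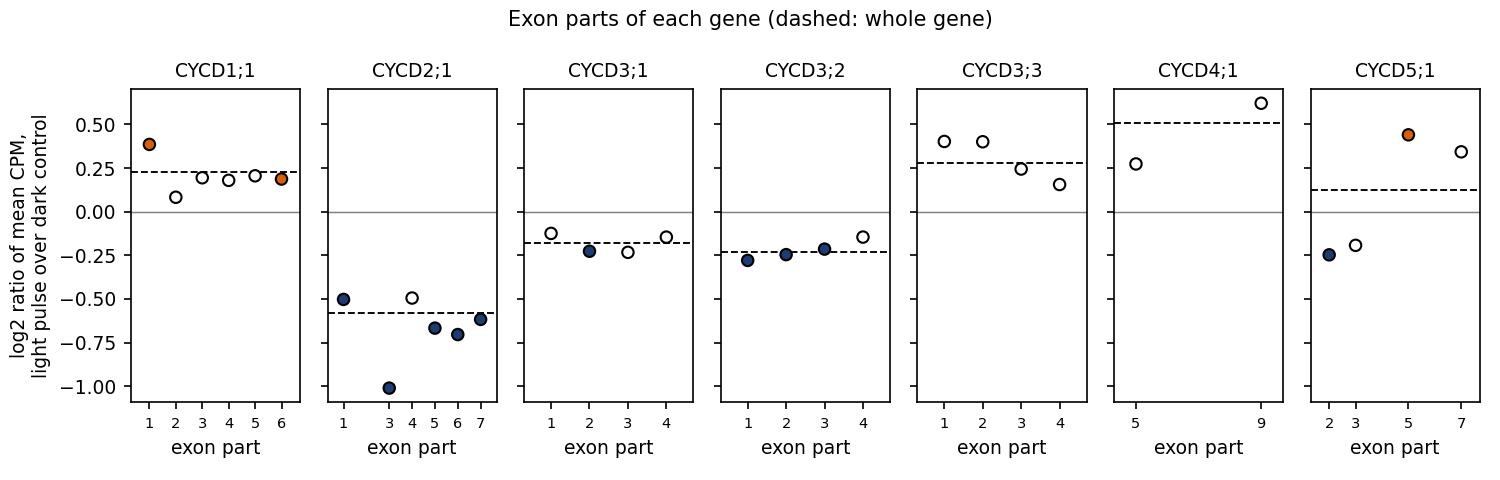
Log2 ratio of the mean CPM of light pulse over dark control libraries for each tested exon part, by its number along the chromosome, with the whole-gene change as a dashed line. Filled points are parts whose groups do not overlap (orange higher, blue lower in light pulse libraries). The 6 parts of CYCD2;1 all lie at or below -0.49.

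No change in the make-up of a D-type cyclin transcript was called. Usage, the count of a feature relative to its gene's count in the same library, was tested with edgeR's quasi-likelihood test over all features of a kind. Of 39 exon parts of the 7 genes, 30 could be tested and 0 were called, also in DESeq2, where 0.0988% of all tested exon parts were called by edgeR. At an unadjusted p below 0.05 there was 1 in edgeR and 0 in DESeq2. That 1 was part 3 of CYCD2;1 (usage change -0.43 ± 0.17, adjusted p = 1). It held 13.0% ± 1.2 of the gene's count in light pulse libraries and 17.4% ± 3.1 in dark control libraries (SD, n = 3). Of 35 splice junctions, 19 were tested and 0 were called, also in DESeq2 and with 0 at an unadjusted p below 0.05, against 0.169% of all junctions.

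Introns and the 5 parts annotated as alternatively spliced held too few reads to pass the filter on low counts in any of the 7 genes. With only a minimum of 10 reads over all libraries, 4 of the introns and 3 of the parts could be tested, with 0 called and 0 at an unadjusted p below 0.05 in edgeR's test. Over all libraries, 59 intron reads fell in the light pulse group and 52 in the dark control group, spread over 30 introns. Genome-wide, 5.91% of tested introns and 1.19% of tested alternatively spliced parts were called. The intron with the most reads was intron 1 of CYCD1;1, with 1, 5 and 2 reads in light pulse libraries against 0, 2 and 3 reads in dark control libraries, and introns 1 and 2 of CYCD3;1 held as many over all libraries. Intron 1 of CYCD3;1 had 6 reads in light pulse and 7 in dark control libraries, and its intron 2 had 7 in light pulse and 6 in dark control libraries. In the other genes, the fullest intron held 1 to 3 reads per group.

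Reads across splice junctions showed both forms of the short alternative sites. In CYCD2;1, a part of 3 bases (chromosome 2, 9554415 to 9554417) at an alternative 3' splice site was entered by 0 of 33 junction reads in light pulse libraries, which allows a share of up to 9.09%. In dark control libraries 8 of 90 entered it (8.89%, exact 95% interval 3.92% to 16.8%). By library, the reads were 0 of 13, 0 of 14 and 0 of 6 in light pulse libraries and 3 of 32, 1 of 25 and 4 of 33 in dark control libraries. The difference was not tested. The dark control share lies just below the light pulse limit, and its interval reaches above that limit. For light pulse libraries the exact 95% interval reaches 10.6% and overlaps that of dark control libraries. These few reads do not decide whether the shares differ. In CYCD5;1, a part of 6 bases (chromosome 4, 17679991 to 17679996) was entered by 21 of 24 junction reads in light pulse libraries (87.5%, exact 95% interval 67.6% to 97.3%) and by 18 of 23 in dark control libraries (78.3%, exact 95% interval 56.3% to 92.5%). These intervals and limits cover counting error only.

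Per length, CYCD3;2 was the most abundant D-type cyclin transcript, at 54.3 ± 3.2 RPKM in light pulse and 63.8 ± 2.3 RPKM in dark control libraries (SD, n = 3 libraries per group, as below). CYCD3;1 came next, at 24.1 ± 4.3 RPKM in light pulse and 27.0 ± 1.5 RPKM in dark control libraries. Below them in light pulse libraries were CYCD3;3 (14.2 ± 1.5 RPKM), CYCD1;1 (12.8 ± 0.4 RPKM) and CYCD2;1 (12.3 ± 1.6 RPKM), each of which overlapped the next. In dark control libraries CYCD2;1 (18.4 ± 1.2 RPKM) followed CYCD3;1, clear of CYCD3;3 (11.8 ± 2.5 RPKM) and CYCD1;1 (10.9 ± 0.5 RPKM), which overlapped. The last places were the same in both groups. AT4G37630 had 3.53 ± 0.12 RPKM in light pulse and 3.22 ± 0.18 RPKM in dark control libraries, and AT5G65420 had 1.86 ± 0.46 RPKM in light pulse and 1.32 ± 0.12 RPKM in dark control libraries.

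The change of place shows as a ratio of 2 members, picked after their values were seen. It sets a gene called lower over a gene called higher, so separate groups follow from the choice. The other member ratios computed overlapped between groups, and AT1G70210 lost its call in 8 of 14 alternatives. AT2G22490 over AT1G70210 was 0.923, 1.09 and 0.873 in light pulse libraries, against 1.66, 1.61 and 1.80 in dark control libraries, so the pair was near parity after the pulse and unequal in darkness. As shares of the summed RPKM of the 7 genes, AT2G22490 held 10.0% ± 1.6 in light pulse and 13.5% ± 0.4 in dark control libraries, and AT1G70210 held 10.4% ± 0.6 in light pulse and 8.0% ± 0.3 in dark control libraries. The groups did not overlap in either share. They also did not overlap for CYCD4;1, at 1.5% ± 0.4 in light pulse and 0.97% ± 0.13 in dark control libraries. The same held for CYCD5;1, at 2.9% ± 0.1 in light pulse and 2.4% ± 0.2 in dark control libraries. The share of CYCD3;2 was 44.1% ± 1.5 in light pulse and 46.8% ± 1.7 in dark control libraries, with overlap. The sum itself was 125, 118 and 126 RPKM in light pulse libraries, against 139, 130 and 140 RPKM in dark control libraries. With a lower sum in light pulse libraries, a share can rise without a rise of its gene. These ratios, shares and sums are descriptions, with no test.

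**Figure D4:**
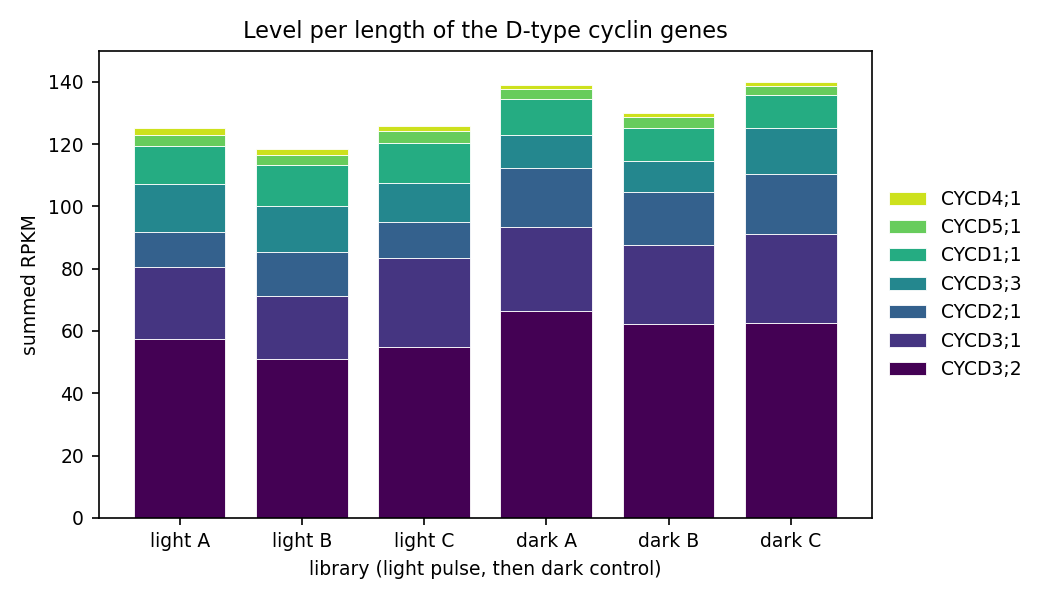
Stacked RPKM of the 7 D-type cyclin genes in each library, light pulse libraries left of dark control libraries. The stacks reach 118 to 126 RPKM in light pulse libraries and 130 to 140 RPKM in dark control libraries, and the bottom block, CYCD3;2, is the tallest in each.

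The other D-type cyclins of Arabidopsis were not called or were too low to test. CYCD6;1, known for the formative division of the root ground tissue, had 6.69, 7.37 and 7.79 CPM in light pulse libraries, against 7.79, 6.16 and 8.02 CPM in dark control libraries (change -0.02 ± 0.14, adjusted p = 0.936). CYCD4;2 had 2.36, 1.76 and 2.88 CPM in light pulse libraries, against 1.73, 2.02 and 1.54 CPM in dark control libraries (0.37 ± 0.27, adjusted p = 0.252). CYCD7;1, a gene of the last division before guard cells form, had 1, 1 and 1 reads in light pulse libraries and 4, 1 and 2 reads in dark control libraries and was not tested. None of the 10 D-type cyclin loci overlaps another locus by its coordinates.

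For each of the 7 genes, 1 tested gene followed its profile over the 6 libraries most closely, by the root-mean-square difference of log2 CPM centred on each gene's mean. For AT1G70210 this was RLP4, a receptor-like protein gene, at a difference of 0.018. For AT2G22490 it was AT3G22235 (0.032), for AT4G34160 the kinase gene KIPK (0.043), for AT5G67260 it was AT1G03280 (0.026) and for AT3G50070 it was AT5G40080 (0.043). For AT5G65420 it was RALFL24, a RALF-like peptide gene (0.084), and for AT4G37630 it was AT1G51690, a protein phosphatase 2A regulatory subunit gene (0.021). These are the closest of 20151 tested genes, and such likeness among 6 libraries is a description.

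The genes around the D-type cyclins in the cell cycle were counted over lists. Beside the counts of each list below, 56.3% of all tested genes were called, 28.9% higher and 27.4% lower. CDKA;1 (AT3G48750), the kinase partner, had 38.0, 40.4 and 35.3 CPM in light pulse libraries, against 45.2, 51.3 and 49.1 CPM in dark control libraries, with no overlap. It fell by 0.35 ± 0.07 on the log2 scale (adjusted p = 0.000743), and tested against a minimum change of 1.2-fold it was not called (adjusted p = 0.0999). Of 12 kinase, activator and docking genes, 2 were called higher and 2 lower, with a median of 0.06. CYCH;1, the cyclin of the CDK-activating kinase, rose by 0.75 ± 0.11 (adjusted p = 2.06e-05), and CDKF;1 (AT4G28980), a kinase that activates other CDK-activating kinases, fell by 0.47 ± 0.09 on the log2 scale (adjusted p = 0.000350). The CDK-activating kinase gene CDKD;1 (AT1G73690) rose by 0.56 ± 0.19 (adjusted p = 0.0175), a call lost without light B (adjusted p = 0.0787), without dark C (adjusted p = 0.0666), without light A and dark C (adjusted p = 0.0981) and in DESeq2 (adjusted p = 0.0891).

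Inhibitors of the D-type cyclin kinase moved in both directions. All 7 KRP genes were tested, with 3 called higher and 2 lower and a median of 0.37. KRP1 rose 2.01-fold, by 1.00 ± 0.12 (adjusted p = 3.11e-06), with 14.2, 14.7 and 15.3 CPM in light pulse libraries, against 8.26, 6.49 and 7.25 CPM in dark control libraries. KRP4 had 15.4, 17.3 and 14.3 CPM in light pulse libraries, against 30.5, 31.5 and 28.1 CPM in dark control libraries, and fell by 0.93 ± 0.09 on the log2 scale (adjusted p = 4.14e-07). KRP2 fell by 0.44 ± 0.12 on the log2 scale (adjusted p = 0.00699), but was not called against a minimum change of 1.2-fold (adjusted p = 0.0736). KRP5 rose by 0.60 ± 0.19 (adjusted p = 0.0120), a call lost without light A (adjusted p = 0.0640) and without dark C (adjusted p = 0.0544). KRP7 (0.58 ± 0.22, adjusted p = 0.0377, overlapping groups), the third called higher, lost its call without light A (0.30, adjusted p = 0.284), dark B (0.54, adjusted p = 0.0862) or dark C (0.50, adjusted p = 0.106). Without light A, without dark C and without both, KRP1 was thus the 1 gene of the list called higher. Without both, KRP2 (adjusted p = 0.0514), KRP5 (adjusted p = 0.192) and KRP7 (adjusted p = 0.495) were not called.

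Of 9 SIM and SMR genes, a plant family of CDK inhibitors linked to endoreduplication, 6 were tested, with 1 called higher and 1 lower and a median of 0.01. SMR1, also named LGO, had 37.4, 35.1 and 33.2 CPM in light pulse libraries, against 18.7, 18.6 and 16.0 CPM in dark control libraries, and rose by 0.99 ± 0.09 (adjusted p = 1.16e-07). SIM, the founding member, fell by 0.41 ± 0.11 on the log2 scale (adjusted p = 0.00621), but was not called against a minimum change of 1.2-fold (adjusted p = 0.0849). The members AT1G10690 (-0.68 ± 0.31, adjusted p = 0.0740) and AT5G40460 (0.45 ± 0.35, adjusted p = 0.287), which carry no symbol in the files, were not called. AT1G10690 was called lower without light A (-0.98, adjusted p = 0.0326) and without dark A (-0.84, adjusted p = 0.0447).

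Downstream of the D-type cyclins, most genes of the S-phase list and some of the retinoblastoma and E2F list were called higher, and none lower. RBR1, the substrate, had 76.9, 69.2 and 77.6 CPM in light pulse libraries, against 49.7, 43.0 and 49.5 CPM in dark control libraries. It rose by 0.65 ± 0.07 (adjusted p = 1.78e-06). Of the 9 genes of the retinoblastoma and E2F list, 4 were called higher and 0 lower, with a median of 0.28. That makes 44.4% called. Of all tested genes, 56.3% were called, 28.9% higher and 27.4% lower. E2FA, an activating E2F, rose by 0.69 ± 0.13 (adjusted p = 0.000328), but its locus overlaps another by coordinates. E2FC rose by 0.33 ± 0.11 (adjusted p = 0.0185), and DEL1, which represses endoreduplication, by 0.43 ± 0.17 (adjusted p = 0.0461), with overlapping groups.

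Both weaker calls of that list depended on single libraries. E2FC was not called without light A (adjusted p = 0.0803), dark B (adjusted p = 0.0552) or dark C (adjusted p = 0.0730). DEL1 was not called without light A (adjusted p = 0.222), light B (adjusted p = 0.113), dark A (adjusted p = 0.143) or dark B (adjusted p = 0.0862). Neither E2FC (adjusted p = 0.222) nor DEL1 (adjusted p = 0.185) was called without light A and dark C. RBR1 and E2FA were called in every alternative run.

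Of 18 S-phase genes, which include the MCM helicase, ribonucleotide reductase and origin licensing genes, 16 were called higher and 0 lower. That makes 88.9% called, against 56.3% of all tested genes. The median change of the 18 was 0.77, and between 14 and 16 were called higher in every alternative run. RNR2A, a small subunit of ribonucleotide reductase, had 61.3, 58.1 and 63.1 CPM in light pulse libraries, against 21.3, 17.9 and 25.8 CPM in dark control libraries, and rose by 1.48 ± 0.10 (adjusted p = 5.31e-09). RNR1, the large subunit, rose by 0.82 ± 0.07 (adjusted p = 7.90e-08), MCM6 by 0.95 ± 0.09 (adjusted p = 3.86e-07) and MCM7, whose locus overlaps another, by 0.86 ± 0.08 (adjusted p = 4.44e-07). Summed over the list, CPM was 708 to 741 in light pulse and 343 to 445 in dark control libraries.

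**Figure D5:**
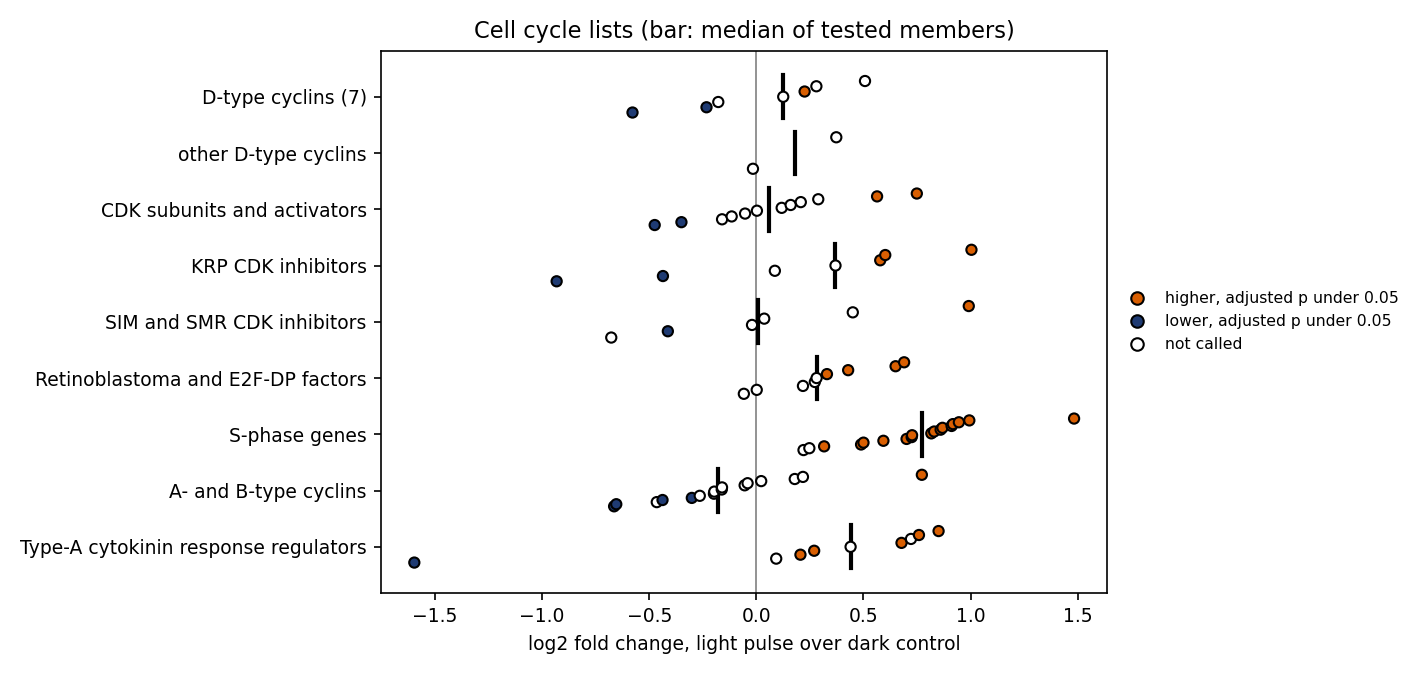
Log2 fold change of light pulse over dark control for each tested gene of the cell cycle lists (orange called higher, blue called lower, white not called), with a bar at the median of each list. The S-phase genes all lie above 0, with a median of 0.77, while the 7 D-type cyclins lie on both sides of 0, with a median of 0.13.

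A- and B-type cyclins mostly act later in the cell cycle. Of 18, 16 were tested, with 1 called higher and 4 lower and a median of -0.18. When light A and dark C were left out, 3 were called lower. With libraries scaled by their totals alone 7 were called lower, and without light B 2 were called higher. CYCA3;2 had 21.9, 24.4 and 20.0 CPM in light pulse libraries, against 34.9, 35.3 and 35.5 CPM in dark control libraries, and fell by 0.66 ± 0.08 on the log2 scale (adjusted p = 4.43e-06). CYCB2;3 fell by 0.65 ± 0.15 on the log2 scale (adjusted p = 0.00165) and CYCA2;3 by 0.30 ± 0.09 (adjusted p = 0.00960). Against a minimum change of 1.2-fold, CYCA2;3 was not called (adjusted p = 0.284). CYCA3;1, an S-phase A-type cyclin, rose by 0.77 ± 0.17 (adjusted p = 0.00107).

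Type-A response regulators, early targets of cytokinin, were counted because that hormone acts on the CYCD3 genes. Of 10, 9 were tested, with 5 called higher and 1 lower and a median of 0.44. ARR6 rose by 0.85 ± 0.10 (adjusted p = 3.48e-06), ARR7 by 0.76 ± 0.13 (adjusted p = 0.000127) and ARR5 by 0.68 ± 0.13 (adjusted p = 0.000430). ARR16 had 2.36, 1.76 and 1.68 CPM in light pulse libraries, against 5.67, 6.49 and 5.55 CPM in dark control libraries, and fell by 1.60 ± 0.20 on the log2 scale (adjusted p = 6.92e-06). None of the CYCD3 genes was called higher with all 6 libraries, while CYCD3;3 was without light C, without dark C, and without light A and dark C. Whether cytokinin acted on the CYCD3 genes here was not tested.

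Markers of the tissues in a whole seedling were called in both directions, as were genes at large. The marker counts here and below stand against 56.3% of all tested genes called, 28.9% higher and 27.4% lower. Of 5 shoot meristem and primordium markers, 3 were tested, with 1 called higher (KNAT1, 0.54 ± 0.11, adjusted p = 0.000534) and 1 lower (STM, -0.81 ± 0.29, adjusted p = 0.0263), while WUS had 0 reads in all libraries. STM was not called without light A (adjusted p = 0.142), dark A (adjusted p = 0.0676), dark C (adjusted p = 0.0628) or light A and dark C (adjusted p = 0.221), and without dark A 2 markers were called higher. Their summed level was 54.6 to 62.2 CPM in light pulse and 44.4 to 51.9 CPM in dark control libraries.

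All 5 root meristem markers were tested, with 1 called higher (SCR, 0.37 ± 0.06, adjusted p = 9.53e-05) and 1 lower (SHR, -0.24 ± 0.09, adjusted p = 0.0394). SHR was not called without light A (adjusted p = 0.0715), light C (adjusted p = 0.152), dark A (adjusted p = 0.114), dark C (adjusted p = 0.0737) or light A and dark C (adjusted p = 0.100), and without dark B 2 markers were called higher. They summed to 78.4 to 79.0 CPM in light pulse and 67.7 to 68.9 CPM in dark control libraries. Of 4 stomatal lineage markers, 1 was called lower (FAMA, -0.48 ± 0.10, adjusted p = 0.000868), at sums of 36.9 to 49.7 CPM in light pulse and 48.6 to 50.0 CPM in dark control libraries. Without light C 2 of these were called lower, and without dark C 1 was called higher.

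Of 3 root hair and root body markers, 2 were called higher, COBL9 (0.92 ± 0.25, adjusted p = 0.00565) and EXPA7 (0.74 ± 0.26, adjusted p = 0.0241). EXPA7 was not called without light A (adjusted p = 0.0946), light B (adjusted p = 0.0730), dark A (adjusted p = 0.116), dark C (adjusted p = 0.0670) or light A and dark C (adjusted p = 0.175), while without dark B all 3 were called higher. The third marker, PYK10, was not called with all libraries (0.11). The sum of all 3 was 3113 to 3523 CPM in light pulse and 2953 to 3262 CPM in dark control libraries. It includes PYK10 and does not describe the 2 called genes alone. Of 3 leaf mesophyll markers, 2 were called higher, RCA (1.11 ± 0.05, adjusted p = 1.53e-10) and RBCS2B (0.80 ± 0.06, adjusted p = 2.05e-08). The third, RBCS1A, was not called (0.08). The leaf markers summed to 29703 to 31311 CPM in light pulse and 20459 to 21469 CPM in dark control libraries. A marker's own response to light and a change in the amount of its cells cannot be told apart here. The part of cell make-up in the D-type cyclin changes was not tested.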

How the data were processed

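The authors deposited whole-number counts for genes, exon parts, alternatively spliced parts, introns and splice junctions of 6 libraries. Per the submitters' processing notes, TopHat2 2.0.9, TAIR10 and R 3.1 were used. Which program counted the reads, whether strand was used and how reads were filtered is not given in the sources used here. Groups come from the column names, which carry letters and not the labels' replicate numbers. The exon length of each gene is the deposited one.

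The gene counts of all 33602 loci entered edgeR 4.0.16 (R 4.3.3, limma 3.58.1) with TMM normalization and filterByExpr (minimum count 10). The quasi-likelihood test was adjusted by the Benjamini-Hochberg method over the 20151 tested genes. Usage tests had as offset log(gene count + 0.5). Junctions that hit several genes (4748) were left out of the usage tests. Exon rows that name a splicing event were left to the alternatively spliced parts. Log2 CPM for likeness between genes used a prior count of 2. The junction intervals are exact (Clopper-Pearson, 95%), and the limit for 0 reads is 3 reads of the total.

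Alternatives were other size factors, library totals alone, DESeq2 1.42.0, no filter, ribosomal RNA loci left out, a minimum fold of 1.2, each library left out, light A and dark C left out and, added after seeing the data, the column letter as a block. The methods were tested on simulated data in which few rows changed, with as many raised as lowered. In the real data 56.3% of tested genes were called, so the scaling was not tested at such a share. Named genes are the 7 members, the other D-type cyclins, CDKA;1, RBR1, up to 4 genes per list with the lowest adjusted p, all called features of the members, each member's fullest intron and its most similar gene. CYCD2;1 exon part 3, the 2 short splice parts, KRP7, the marker genes and the ratios between members were named after their values were seen. The members and lists were chosen with earlier results of these data known. Sequences were not used here.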

Additional observations from a re-analysis of the deposited data

How the results depend on the processing

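CYCD2;1 was called lower in all 14 alternatives (-0.72 to -0.50), and CYCD3;2 in 13 of them. Libraries scaled by their totals alone moved the median of all genes to -0.14 and the share of calls that were higher to 36.1%, against 51.3% with TMM. Under that scaling 0 members were called higher, CYCD1;1 changed by 0.083 and was not called, and CYCD3;1 changed by -0.32 and was called lower. DESeq2 called 0 members higher, with CYCD1;1 at 0.22. Against a minimum fold of 1.2, 0 members were called higher, 1 lower and 1 in all, with estimates as before (CYCD1;1 0.23, CYCD3;2 -0.23). That test called 3832 genes higher and 3587 lower, against 5826 and 5527. Without light A and dark C, CYCD1;1 (0.22) lost its call and CYCD3;3 (0.41) gained one, so the 1 member called higher was another gene. The same exchange took place without light C and without dark C. Leaving out each library in turn, 0 to 1 members were called higher and 2 to 3 lower. CYCD1;1 then ranged from 0.20 to 0.26, CYCD3;1 from -0.31 to -0.060 and CYCD3;3 from 0.18 to 0.46. The causes were not tested. Genes of the retinoblastoma and E2F list called higher were 2 with library totals alone, in DESeq2, against a fold of 1.2 and without light A and dark C, against 4 in the report, and type-A response regulators called higher were 3, against 5, with library totals alone and against a fold of 1.2. Members' exon parts and junctions had 0 calls in every alternative, while exon calls over all genes were 101 with all libraries, 23 without light A and dark C and 51 to 80 with each library left out, and junction calls were 111, against 45 in DESeq2 and 68 without the filter. The labels' replicate numbers are not on the count columns, and no source says that the shared letters A to C pair libraries. Deviations from the group means correlated at -0.067 (A), 0.12 (B) and -0.041 (C) between libraries of the same letter, and light A and light C each correlated best with another letter. With the letter as a replicate block, an alternative chosen after seeing the data, members called were 1 higher and 3 lower, CYCD3;1 (-0.17, adjusted p = 0.0499 in edgeR) being the added one, and genes called were 5941 higher and 5654 lower. DEL1 lost its call under it (adjusted p = 0.0575). CYCD4;1, with 101 reads in light pulse and 86 in dark control libraries, and all introns are limited by depth.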
